A study of Saccharomyces cerevisiae with 17 samples.

Results

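The RNA levels of 10 budding yeast genes of heme metabolism were followed across 10 groups of strains. HEM1, HEM2, HEM3, HEM4, HEM12, HEM13, HEM14 and HEM15 encode the enzymes of heme synthesis. HMX1 encodes the heme oxygenase that breaks heme down, and ROX1 encodes a repressor of genes used when oxygen is scarce. The genes were taken as a named list of 10 among the 6644 genes present in both deposited tables, and all 10 were found. All 10 also passed the filter on low values, the lowest member value in any column being 13.3 FPKM, for HEM14 in wild type. Levels are in FPKM, that is, fragments relative to transcript length and to all mapped fragments, turned back from the deposited logarithms. The list was chosen by measured values, HEM13 being lower and HMX1 higher with the Chd1-Ume6 fusion in the rrp6 deletion. Values of the rrp6 strains are therefore given as a description with no test, and nothing is supported with them.

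Heme is the iron-carrying ring of cytochromes, catalases and other enzymes, and yeast makes it in steps that begin and end in the mitochondrion and pass through the cytosol. The step run by Hem13 uses molecular oxygen. ROX1 is expressed when heme and oxygen are plentiful, and its product represses HEM13 and other hypoxic genes, while HMX1 is known as a gene that Aft1 switches on when iron is short.

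The series asked how nucleosomes moved to chosen sites affect transcription. Chd1-Ume6 joins Chd1, an enzyme that slides nucleosomes, to the DNA-binding part of Ume6, a repressor that binds the URS1 element and brings in the Rpd3 histone deacetylase and the Isw2 remodeler. Ribosomal RNA was removed from total RNA of W303 cultures, and strand-specific libraries were sequenced. The labels describe 17 libraries and the authors deposited 15 columns of levels.

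Wild type was 1 column, which appears to be an average made by the authors, and served as the control of every deletion. The isw2 deletion and the rpd3 deletion had 1 column each. The isw2 rpd3 double deletion, also 1 column, was made in a prototrophic W303 strain, so its background and its deletions cannot be told apart. The ume6 deletion had 2 columns, and the ume6 deletion with Chd1-Ume6 had 2. The ume6 deletion with a catalytically inactive fusion, in which Chd1 carries D513N per the column header, had 1. Wild type with Chd1-Ume6, which keeps its native Ume6, had 2 columns. The rrp6 deletion, which lacks the exonuclease of the nuclear exosome, had 2 columns, and the rrp6 deletion with Chd1-Ume6, also with native Ume6, had 2. The promoter that drives the fusion is not given in the labels. In bulk cultures, fewer expressing cells and less RNA per cell cannot be told apart.

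The deleted genes followed the labels, with RPD3 at 0.0479 and 0.110 FPKM in its deletions against 50.5 in wild type and RRP6 at no more than 1.68 in the rrp6 columns against 77.1. CHD1 stood at 32.6 FPKM in wild type, and between 276 and 1608 in the strains with a fusion. It was lowest of these in the rrp6 strains with Chd1-Ume6, at 276 and 288 FPKM. The ume6 deletion with Chd1-Ume6 had 836 and 1075 FPKM, wild type with it 505 and 449, and ume6 with the inactive fusion 1608. The part of the CHD1 level in the results was not tested. Pairs of columns of 1 group correlated with r between 0.945 and 0.973 across genes. The columns summed to between 889087 and 1216140 FPKM. They hold no counts, so depth is unknown. The labels do not say that isolates were separate cultures, so that p-values rest on the variation among these columns, possibly technical. Tests are limma estimates on log2(FPKM + 1) with Benjamini-Hochberg adjustment over 6241 genes, called at an adjusted p under 0.05, and errors are standard errors of the fit.

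The stretches upstream of HEM13, HMX1, ROX1, HEM1 and HEM12 are printed because they hold the letters searched for known regulators of these genes. They were read from RefSeq's R64 genome of strain S288C, 5′ to 3′ on the strand of the gene, and the sequenced strain was W303. Capitals mark matches on either strand to ATTGTT for Rox1 in HEM13 and ROX1, to GCACCC for Aft1 in HMX1, and to GGCGGC, the core of URS1, in HEM1, HEM12 and YPR064W. YPR064W is a reading frame next to ROX1, added after its values were seen.
HEM13, chrIV:546167-546466, plus strand: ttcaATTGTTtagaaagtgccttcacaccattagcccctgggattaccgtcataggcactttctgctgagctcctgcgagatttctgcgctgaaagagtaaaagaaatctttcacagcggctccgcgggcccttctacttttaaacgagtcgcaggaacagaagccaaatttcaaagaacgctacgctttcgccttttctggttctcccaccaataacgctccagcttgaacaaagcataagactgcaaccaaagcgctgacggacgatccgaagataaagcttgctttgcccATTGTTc
HMX1, chrXII:554103-554152, minus strand: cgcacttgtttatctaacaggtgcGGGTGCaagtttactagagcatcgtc
ROX1, chrXVI:679218-679317, plus strand: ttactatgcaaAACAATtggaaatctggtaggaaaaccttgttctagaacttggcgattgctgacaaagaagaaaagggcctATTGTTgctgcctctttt
HEM1, chrIV:927037-927086, plus strand: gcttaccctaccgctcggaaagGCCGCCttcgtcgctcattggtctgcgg
HEM12, chrIV:551595-551644, plus strand: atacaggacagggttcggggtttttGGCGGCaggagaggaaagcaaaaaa
YPR064W, chrXVI:678776-678825, plus strand: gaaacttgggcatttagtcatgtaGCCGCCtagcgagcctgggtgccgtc

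In the 500 bases before the start codon, ATTGTT was found in 7 of the 10 genes, among them HEM13 at -471 and -182 and ROX1 at -464 and -393. The same letters stand before 48.9% of 6006 yeast genes. GCACCC was found before HEM1 and HMX1 and before 7.63% of all genes. GGCGGC was found before HEM1, at -393, and HEM12, at -240, and before 9.57% of all genes. CCAAT, the letters of the Hap complex, stood before 9 of the 10 genes and 62.4% of all genes, and 1 match before ROX1 shares bases with the ATTGTT match at -464. The authors' table marks each gene as holding or lacking a motif that it leaves unnamed, by an entry of yes or no, and among the 10 genes the entry is yes for HEM2 alone. GGCGGC stood before 66.7% of the 228 genes with the entry yes and 7.25% of those with no, yet it was not in the window before HEM2. The printed HMX1 stretch lies between HMX1 and the divergent gene ENT2, and the ROX1 stretch lies inside YPR064W, whose own entry is yes. The GGCGGC match of YPR064W begins 893 bases before the start codon of ROX1, outside its searched window. A match is a description of letters, and binding was not measured.

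HEM13, HMX1 and ROX1 varied most. Between the lowest and the highest of the 15 columns HEM13 differed 14.0-fold, HMX1 13.0-fold and ROX1 7.20-fold, while each of the other 7 genes differed by 1.94-fold to 2.19-fold. Without the 4 rrp6 columns the range was 2.90-fold for HEM13, 4.86-fold for HMX1 and still 7.20-fold for ROX1. The rrp6 deletion held the highest HEM13 and the lowest HMX1, rrp6 with the fusion the highest HMX1, and ume6 with the fusion the highest ROX1 and the lowest HEM13. The plot of all 10 genes by group shows the columns.

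**Figure D1:**
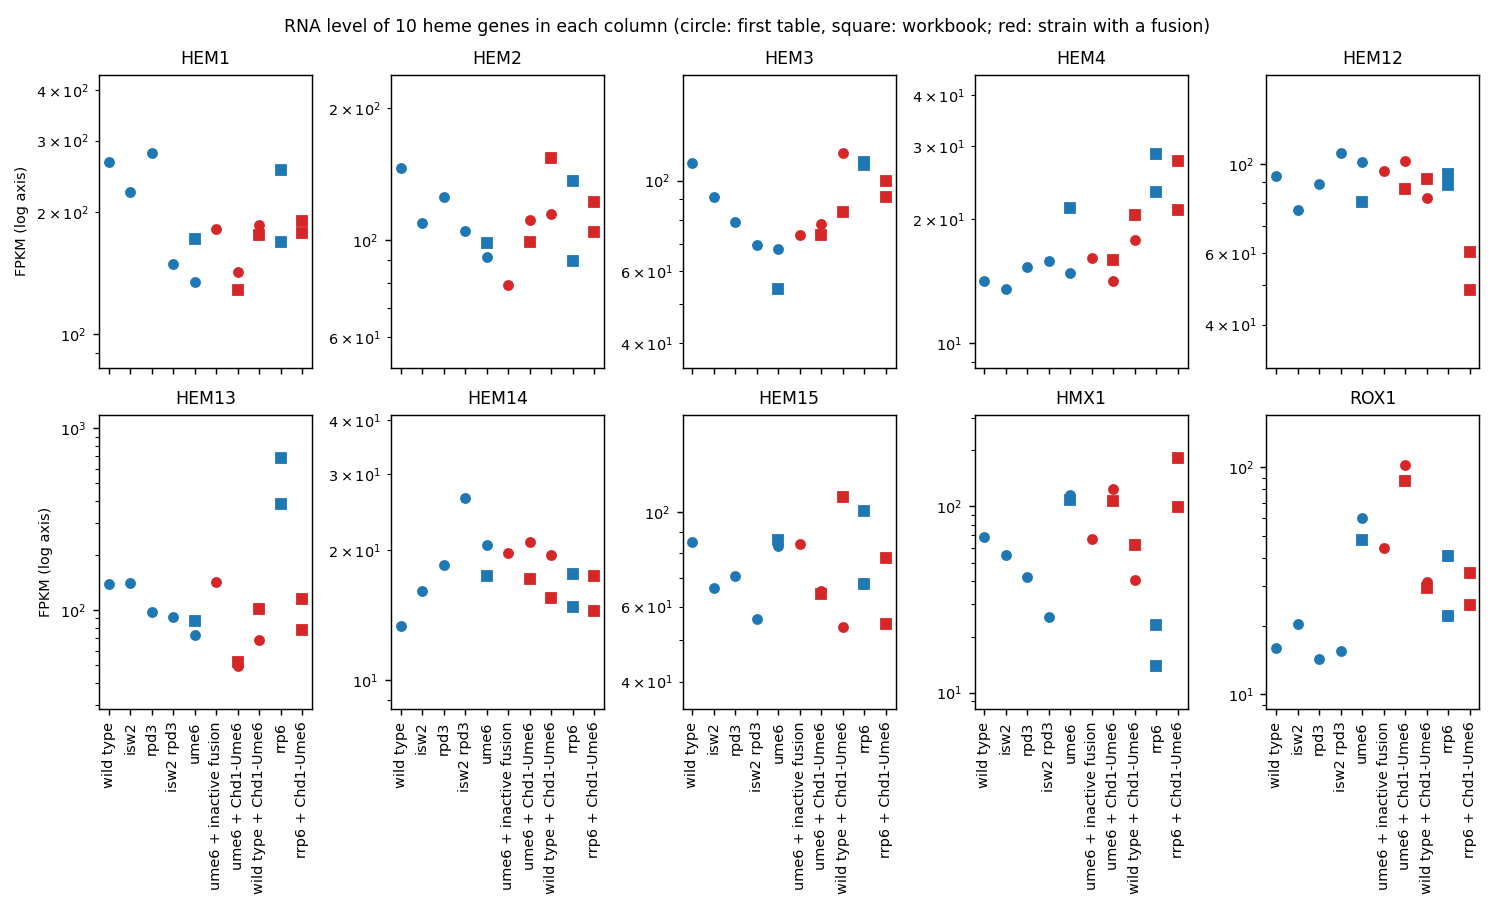
RNA level of each of the 10 heme genes in FPKM on a log axis (each panel with its own range), 1 point a deposited column, by group on the x axis. Circles are columns of the first table and squares columns of the workbook, and red marks strains with a fusion, active or inactive. HEM13 stands highest in rrp6 (688 and 382 FPKM), HMX1 lowest there (23.1 and 14.0), and ROX1 highest in ume6 with Chd1-Ume6 (103 and 87.6).

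HEM13 encodes coproporphyrinogen oxidase, an oxygen-using enzyme, and lies at chrIV:546642-547628. Its level was 140.1 FPKM in wild type, 142 in isw2, 97.3 in rpd3 and 91.9 in the double deletion. It was 72.9 and 87.4 FPKM in the ume6 columns, 142 with the inactive fusion, and 49.1 and 51.6 with the active fusion. Wild type with Chd1-Ume6 had 68.4 and 102 FPKM, the rrp6 deletion 688 and 382, and rrp6 with Chd1-Ume6 78.3 and 115. Both rrp6 columns stood above every other column, and the rrp6 columns with the fusion lay among those of the other groups. Below rrp6, the order ran from wild type, isw2 and the inactive fusion, all near 140.1 FPKM, down to ume6 with the active fusion, and the ranges of wild type with the fusion and rrp6 with the fusion overlapped.

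In the contrast that chose the list, HEM13 was lower by 2.42 ± 0.32 on the log2 scale with the fusion than without it in rrp6, 5.37-fold. Across all genes, 0.961% were at least 2-fold lower in that contrast, a share printed for scale only because the rule used it. Against wild type, HEM13 in rrp6 was higher by 1.56 ± 0.47 (log2), a contrast in which 6.59% of genes were at least 2-fold higher. That difference crosses the 2 deposited tables, whose offset was fitted from the 3 groups that both tables hold. Set beside wild type with the fusion, rrp6 with the fusion differed by 0.03 ± 0.34 (log2, 95% interval -0.75 to 0.81).

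Outside the rrp6 strains no HEM13 difference passed the test. In the ume6 deletion, the active fusion gave HEM13 levels 3.10-fold below the inactive one, a log2 difference of -1.63 ± 0.41 with an adjusted p of 0.131 (limma). Both columns with the active fusion lay below the single inactive column. HEM13 differed by -0.95 ± 0.41 between ume6 and wild type (adjusted p = 0.250) and by -0.65 ± 0.32 between ume6 with and without the active fusion (adjusted p = 0.625). With the inactive fusion it was 0.98 ± 0.41 above ume6 (log2, adjusted p = 0.666), so its value there stood at that of wild type. In wild type, the fusion columns were both below the control, by 0.89 ± 0.41 (log2, adjusted p = 0.585). The difference between the ume6 and wild type effects of the fusion on HEM13 was 0.23 ± 0.52 (log2, adjusted p = 0.999).

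HMX1, the heme oxygenase gene at chrXII:552724-553677, ran the other way in the rrp6 strains. Its level was 68.5 FPKM in wild type, 54.7 in isw2, 41.8 in rpd3 and 25.6 in the double deletion. The ume6 columns had 116 and 109 FPKM, the inactive fusion 66.5, and the active fusion in ume6 124 and 107. Wild type with Chd1-Ume6 had 40.2 and 61.7 FPKM, the rrp6 deletion 23.1 and 14.0, and rrp6 with Chd1-Ume6 99.6 and 181. Rrp6 with the fusion held the highest column, but its other column lay below those of both ume6 groups, which overlapped each other. Wild type and the inactive fusion came next and differed little, and the double deletion and rrp6 were lowest.

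With the fusion in rrp6, HMX1 was higher by 2.84 ± 0.36 on the log2 scale, 7.14-fold, in the contrast used to choose it, where 4.25% of all genes were at least 2-fold higher. Leaving out rrp6 with the fusion isolate 2, the higher column, gave 2.41, and leaving out isolate 1 gave 3.26. HMX1 in rrp6 was lower than in wild type by 1.97 ± 0.52 (log2). Here 4.47% of all genes were at least 2-fold lower. In rrp6 with the fusion it was above wild type with the fusion by 1.36 ± 0.39 (log2), or by 0.93 without isolate 2. Of the 10 genes it was the only one at least 2-fold apart in that pair, where 8.60% of all genes were at least 2-fold higher and 1.04% lower.

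Among the tested comparisons HMX1 gave no call. The largest estimate was in the isw2 rpd3 double deletion, -1.39 ± 0.50 (log2, adjusted p = 0.174), with 1 column on each side. Next came ume6 with the fusion against wild type with the fusion, 1.19 ± 0.36 (log2, adjusted p = 0.0651), in which both columns of the first were above both of the second. That value passed the threshold once any 1 of the 4 rrp6 columns was left out, with adjusted p between 0.0441 and 0.0467, and failed it without any 1 of the 4 columns compared, at 0.119 to 0.415. For the active fusion in ume6 the estimate of HMX1 was 0.04 ± 0.36 (log2, 95% interval -0.78 to 0.86, adjusted p = 0.998). The fusion effect in wild type was -0.50 ± 0.46 (log2, adjusted p = 0.773).

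ROX1, the repressor gene at chrXVI:679693-680799, was the only member to pass the test. Its level was 16.0 FPKM in wild type, 20.4 in isw2, 14.3 in rpd3 and 15.5 in the double deletion. It was 59.6 and 47.9 FPKM in ume6, 43.9 with the inactive fusion, and 103 and 87.6 with the active fusion. Wild type with Chd1-Ume6 had 31.3 and 29.5 FPKM, rrp6 22.2 and 40.9, and rrp6 with the fusion 24.7 and 34.1. In these levels, all 5 columns with native UME6 deleted stood above all 10 columns that keep it. The share of all genes split in this way was not counted. Of these 5 columns, those with a fusion still had UME6 RNA, at 65.5 and 73.4 FPKM (active) and 113 (inactive). With the fitted offset between the tables removed, rrp6 isolate 2 (5.59, log2) stood above the inactive fusion (5.49). Within the columns with native UME6 deleted, the order was active fusion, ume6 alone and inactive fusion, with no overlap.

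Between ume6 with the fusion and wild type with the fusion, ROX1 was 3.05-fold higher, 1.61 ± 0.30 on the log2 scale with an adjusted p of 0.0136 (limma). CHD1 RNA was also higher in ume6 with the fusion, by 0.99 ± 0.23 (log2, adjusted p = 0.0301, limma), and its part here was not tested. This comparison called 12.0% of all genes, and 9.36% as higher, so 1 call among 10 genes is near the background. Without 1 of the 4 columns compared, the adjusted p of ROX1 lay between 0.0808 and 0.135 and the call was lost, while the estimate stayed between 1.52 and 1.70. In ume6 against wild type the estimate was as large, 1.78 ± 0.38, at an adjusted p of 0.0561. There it passed without the 4 rrp6 columns (adjusted p = 0.0159), without rrp6 isolate 1 (0.0191) or isolate 2 (0.0194) alone, with no term for the table (0.0476), and with isolate number as a replicate block (0.0251). It did not pass under the other 14 alternatives, and the adjusted p reached 0.408 without the ume6 column of the first table. With against without the active fusion in ume6 the difference was 0.82 ± 0.30 (log2, adjusted p = 0.371), and against the inactive fusion the difference was 1.20 ± 0.38 (adjusted p = 0.220). In wild type the fusion columns were both above the control, with a difference of 0.99 ± 0.38 (log2, adjusted p = 0.541). In rrp6 the fusion and control columns overlapped, with a difference of -0.05 ± 0.30 (log2).

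The neighbours of ROX1 also differed between the fusion strains, but did not follow ROX1 in every comparison. YPR064W, whose reading frame ends before ROX1 begins and whose motif entry is yes, and UBA3, the next gene after ROX1, which activates the ubiquitin-like protein Rub1, were both called in the same comparison. Their log2 differences between ume6 with the fusion and wild type with the fusion were 1.44 ± 0.35 (YPR064W, adjusted p = 0.0371) and 0.97 ± 0.22 (UBA3, adjusted p = 0.0314). For the active fusion within ume6 the estimates were -0.20 for YPR064W and 0.01 for UBA3 against 0.82 for ROX1, and for the fusion in wild type they were 0.07 and -0.04 against 0.99 (log2). YPR064W was at 2.07 FPKM in wild type, 7.70 and 13.9 in ume6, and 1.90 and 3.66 in wild type with the fusion. Without any 1 of the columns compared, the adjusted p of both rose above the threshold, to at most 0.285 for YPR064W and 0.209 for UBA3. These neighbours were looked up after the values of ROX1 were known.

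**Figure D2:**
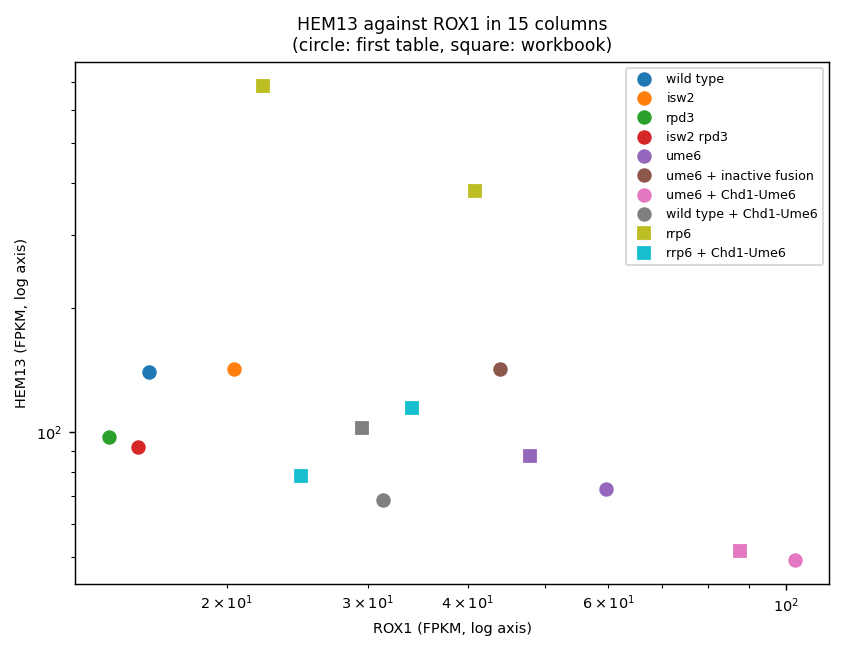
HEM13 against ROX1 in FPKM, both on log axes, 1 point a column, with groups by colour and the deposited table by shape (circle first table, square workbook). Ume6 with Chd1-Ume6 lies at the lower right (ROX1 103 and 87.6, HEM13 49.1 and 51.6 FPKM), while the rrp6 columns stand at the top (HEM13 688 and 382) with ROX1 at 22.2 and 40.9.

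Rox1 is known as a repressor of HEM13, and the levels of the 2 RNAs are set side by side in the plot of HEM13 against ROX1. The lowest HEM13 values were in the columns with the highest ROX1. The inactive fusion had ROX1 at 43.9 FPKM and HEM13 at 142, and wild type had 16.0 and 140.1, so HEM13 was alike in columns whose ROX1 differed. In rrp6, isolate 2 had the higher ROX1 and the lower HEM13 of the pair. Against wild type, both RNAs were higher in rrp6, ROX1 by 1.08 ± 0.44 and HEM13 by 1.56 ± 0.47 (log2), given without a test. The points share columns, tables and scaling, and Rox1 protein was not measured.

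The genes of the other enzymes varied less. HEM1 encodes aminolevulinate synthase, the first step. It was at 266 FPKM in wild type, 280.0 in rpd3, 224 in isw2 and 149 in the double deletion. The ume6 columns had 135 and 171 FPKM, those with the active fusion 142 and 129, and the inactive fusion 182. Wild type with the fusion had 186 and 176 FPKM, rrp6 253 and 169, and rrp6 with the fusion 177 and 190. Wild type and the rpd3 deletion were above all other columns, and the isw2 deletion was above the rest but 1 of rrp6. The estimates of HEM1 were -0.83 ± 0.32 in ume6 (adjusted p = 0.208) and -0.83 ± 0.35 in the double deletion (adjusted p = 0.232), both against the same wild type column.

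HEM2, the gene of porphobilinogen synthase, ranged from 79.2 FPKM with the inactive fusion to 154 in 1 column of wild type with the fusion. HEM2 had 146 FPKM in wild type, 91.8 and 98.8 in ume6, a log2 difference of -0.68 ± 0.33 (adjusted p = 0.314). HEM2 is the member with the authors' motif entry, and its columns with and without the active fusion in ume6 differed by 0.14 ± 0.26 (log2, adjusted p = 0.993). HEM3, the gene of porphobilinogen deaminase, had 111 FPKM in wild type, 67.8 and 54.2 in ume6, -0.71 ± 0.25 (log2, adjusted p = 0.170). HEM3 was at 78.4 and 73.6 FPKM with the active fusion in ume6, above both columns without it, and at 99.7 and 91.2 with the fusion in rrp6, below both rrp6 columns at 109 and 111. HEM4, the gene of uroporphyrinogen synthase, lay between 13.5 and 21.2 FPKM outside the rrp6 strains and at 23.2 and 28.8 in rrp6, with no estimate beyond 0.54 in size (log2).

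HEM12, the gene of uroporphyrinogen decarboxylase, was the steadiest outside the rrp6 strains, between 76.8 and 107 FPKM, a 1.39-fold range. In rrp6 with the fusion it had its lowest values, 60.5 and 48.7 FPKM, against 94.5 and 88.4 in rrp6, a difference of -0.74 ± 0.21 (log2) given without a test. HEM12 and HEM13 lie on chromosome IV with 4231 bases and 2 genes between them. These genes, RPC11 and BAP3, differed by 0.25 ± 0.25 and -0.49 ± 0.21 (log2) in the same contrast.

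HEM14, the gene of protoporphyrinogen oxidase, was lowest in wild type at 13.3 FPKM and highest in the double deletion at 26.4, a log2 difference of 0.94 ± 0.28 (adjusted p = 0.115). BUD25 overlaps HEM14 on the opposite strand by 489 bases and stood at 17.1 and 36.9 FPKM in the same 2 columns. The sources used here do not say whether counting used strand, and the reads of HEM14 and BUD25 cannot be told apart. HEM15, the gene of ferrochelatase, which inserts the iron, ranged from 53.6 to 109 FPKM. Its extremes were the 2 columns of 1 group, wild type with the fusion, and its largest tested estimate was -0.59 ± 0.46 (log2, adjusted p = 0.525), in the double deletion.

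**Figure D3:**
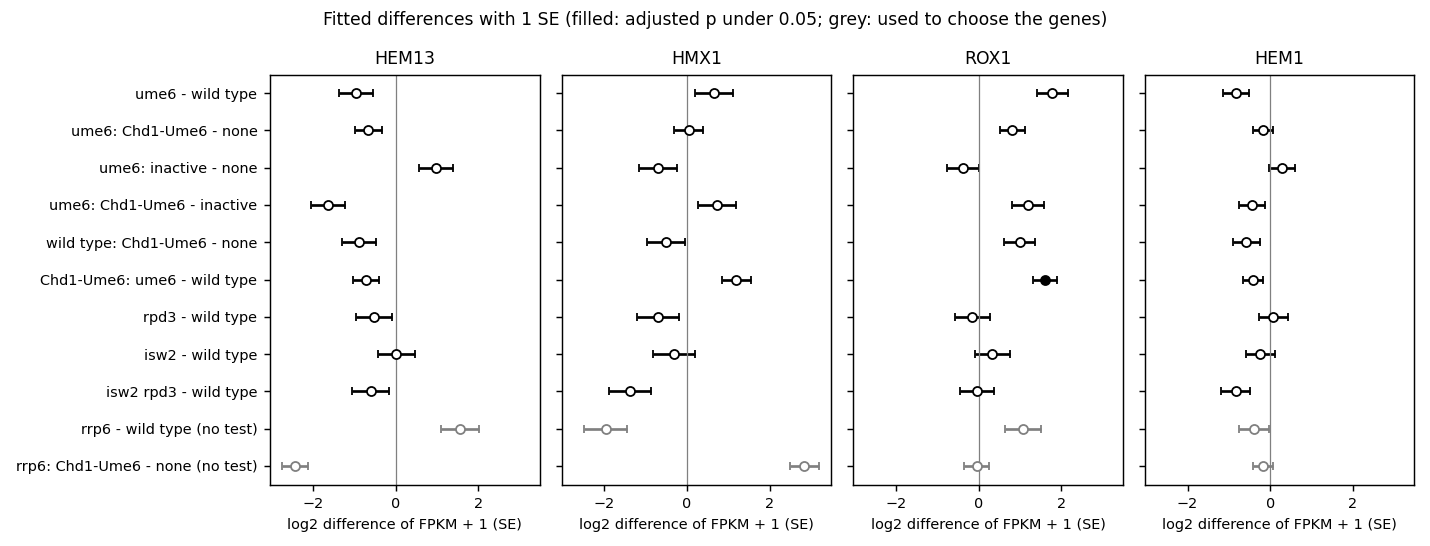
Fitted log2 differences of FPKM + 1 with 1 standard error for HEM13, HMX1, ROX1 and HEM1 in each comparison named on the y axis (first minus second). The filled circle marks an adjusted p under 0.05, which ROX1 reached between ume6 with the fusion and wild type with the fusion (1.61), and grey marks the contrasts of rrp6 with wild type and of rrp6 with and without the fusion, given without a test, where HEM13 (1.56 and -2.42) and HMX1 (-1.97 and 2.84) have opposite signs.

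Counted over the 10 genes, calls were few. In ume6 against wild type 0 of 10 were called and 5 had an unadjusted p under 0.05, against 2.13% and 19.3% of all genes, and the median log2 difference was -0.08 against 0.04 for all genes. The active fusion in ume6 gave 0 calls and 1 unadjusted p under 0.05, against 0.224% and 9.36% of all genes. Compared with the inactive fusion it gave 0 calls and 2 such p, against 0.353% and 14.2%. The inactive fusion against ume6 gave 0 calls and 1 such p, where the shares of all genes were 0.0481% and 7.35%. The fusion in wild type gave 0 calls and 1 such p, against 0.0160% and 8.60%. There were 0 calls and 0 such p in rpd3, against 0.881% and 11.6%, and in isw2, against 0.0160% and 1.31%. The double deletion gave 0 calls and 4 such p, HEM14, HMX1, HEM3 and HEM1, against 3.80% and 19.6% of all genes, and a median of -0.54 against 0.06. The difference between the fusion effects in ume6 and wild type gave 0 calls among members and 0.00% among all genes, with 0 members and 395 genes at an unadjusted p under 0.05. All comparisons with wild type use the same wild type column, so its values enter each of them.

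Columns with and without the active fusion did not overlap for 5 of the 10 genes in ume6, with HEM2, HEM3 and ROX1 higher and HEM13 and HEM15 lower. Over all genes, 22.0% were higher and 13.9% lower in this way. In wild type HEM4, HEM14 and ROX1 were higher and HEM1, HEM12, HEM13 and HMX1 lower, 7 of 10, against 28.2% and 30.1% of all genes and a single control column. These counts leave the offset between the tables in. With the fitted offset removed, HEM2 in ume6 and HEM12 in wild type overlapped. HEM4 in ume6 and HEM2 in wild type then did not, and both were lower with the fusion. In rrp6 HMX1 was higher and HEM3, HEM12 and HEM13 lower, 4 of 10, against 25.4% and 14.7%, in the contrast used for the choice. In both ume6 and wild type, ROX1 was higher and HEM13 lower without overlap. None of these differences passed the test. The share of all genes that kept their direction in both was not counted, so this is a description only.

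Known genes of oxygen and heme supply were set beside HEM13 and HMX1 in the rrp6 strains, again with no test. ANB1, a hypoxic translation factor gene with a close paralog, HYP2, was at 107 and 32.0 FPKM in rrp6, 21.3 and 23.7 in rrp6 with the fusion, 9.65 in wild type, and 6.99 and 20.2 in wild type with the fusion. AAC3, the hypoxic ADP/ATP carrier gene, was at 29.7 and 16.4 FPKM in rrp6, 7.72 and 7.93 in rrp6 with the fusion, and 7.60 in wild type. Like HEM13, both were higher in each rrp6 column than in each column of the other 3 groups plotted. CYC1, the main cytochrome c gene, was at 202 and 142 FPKM in rrp6, 419.5 and 499 in rrp6 with the fusion, and 431 in wild type. CYT1, the cytochrome c1 gene, was at 63.3 and 46.1 FPKM in rrp6, 154 and 185 in rrp6 with the fusion, and 140.3 in wild type, and both were lower in rrp6, as HMX1 was.

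**Figure D4:**
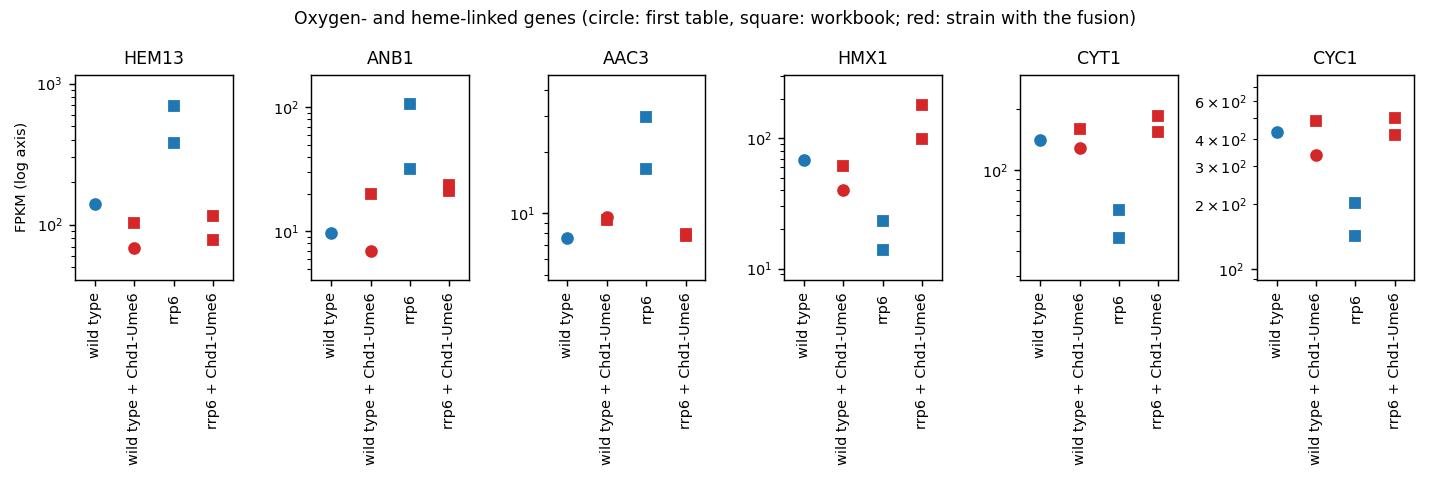
Levels in FPKM on log axes (each panel with its own range) of HEM13, ANB1, AAC3, HMX1, CYT1 and CYC1 in wild type, wild type with Chd1-Ume6, rrp6, and rrp6 with Chd1-Ume6. Each point is a column, circles from the first table and squares from the workbook, red with the fusion. Among the groups plotted, HEM13, ANB1 and AAC3 are highest in rrp6 (ANB1 107 and 32.0) and HMX1, CYT1 and CYC1 lowest there (CYC1 202 and 142).

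Over the whole lists the picture was mixed. Of all genes, 53.5% had a higher estimate with the fusion in rrp6. Of 18 hypoxic genes, 9 were higher and 9 lower, and the median was -0.02 (log2) against 0.03 for all genes. Largest in size were CYC7 at 1.61, AAC3 at -1.39 and ANB1 at -1.35, and CYC7, a minor cytochrome c gene, stood at 26.1 and 121 FPKM in rrp6 with the fusion, against 17.5 and 18.1 without it. Of 10 genes of heme proteins, 6 were higher, with a median of 0.83, led by CYT1 at 1.62, CYC1 at 1.43 and FRE1, a ferric reductase gene, at 1.13. Of 20 genes of the iron regulon, which Aft1 or Aft2 switches on when iron is low, 17 were higher, with a median of 0.36. FET3, an iron oxidase gene, was at 1.51 (log2), FIT2 at 1.40 and SIT1 at 1.39. Of 14 genes of heme supply and handling, 11 were higher, with a median of 0.27. PUG1, a heme and porphyrin transporter gene, stood at 1.08 and YAH1, a ferredoxin gene, at -1.01. The 11 regulator genes of heme and oxygen had a median of -0.07, and ECM22, HAP1 and MOT3 the largest sizes, at -0.51, -0.51 and 0.47. Of 20 oxidative stress genes 13 were higher, with a median of 0.12, and AHP1, a peroxiredoxin gene, at 1.78.

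In rrp6 against wild type, again with no test, 9 of 10 heme protein genes had lower estimates, as did 37.4% of all genes, with a median of -0.70 (log2) against 0.14. FRE1 was at -1.88 ± 0.32 and CYC1 at -1.41 ± 0.43. The catalase gene CTT1 was at -1.77 ± 0.96, although its levels were 16.2 FPKM in wild type and 15.9 and 11.1 in rrp6, so that this estimate rests mainly on the fitted offset between the tables. HAP5, a subunit gene of the Hap complex that activates respiratory genes, was at 2.30. Of 18 hypoxic genes 11 were higher and 7 lower, with a median of 0.21 near that of all genes, and TIR4 was at 1.76, AAC3 at 1.68 and ANB1 at 1.66. Of 20 iron genes 7 were higher and 13 lower, with a median of -0.27. The largest were FET3 at -1.69, SIT1 at -1.47 and TIS11, whose product speeds the decay of mRNAs when iron is low, at 1.18.

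In the tested comparisons the same lists gave most calls, 24, between ume6 with the fusion and wild type with the fusion. That comparison called 12.0% of all genes. They gave 4 calls in ume6 against wild type, and 6 in the double deletion and 1 in rpd3, which keep UME6. Within ume6, the active fusion gave 4 calls against no fusion and 7 against the inactive fusion. In ume6 against wild type, DAP1, whose product binds heme, rose by 1.76 ± 0.33 (log2, adjusted p = 0.0367), the single call among 14 heme supply genes. SUT1, a sterol uptake regulator gene, fell by 1.77 ± 0.35 (adjusted p = 0.0448), the single call among 11 regulators. The hypoxic, heme protein and iron lists had 0 calls there, and 2 of 20 oxidative stress genes, OYE3 at 4.35 and HBN1 at 1.41, rose. Of all genes, 1.59% were called higher and 0.545% lower. None of these 4 calls held in all 10 fits that left out 1 library, and the adjusted p reached 0.384 for OYE3, 0.380 for HBN1, 0.279 for SUT1 and 0.232 for DAP1. Without the ume6 or the ume6 fusion column of the first table all 4 were lost, and the estimate for OYE3 was 2.96 without that ume6 column.

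Between ume6 with the fusion and wild type with the fusion, 4 of 14 heme supply genes rose, DAP1 by 2.22, PUG1 by 1.46, YAH1 by 1.19 and COX10, a heme a synthesis gene, by 1.09 (log2), and 0 fell. Of 18 hypoxic genes 3 rose, DAN1 by 1.90, TIR3 by 1.60 and DAN4 by 1.46, all cell wall protein genes of a repeated family. DAN1 and DAN4 were near the floor, at 0.838 and 0.304 FPKM and at 1.31 and 1.20 in wild type with the fusion. With the fusion in ume6, DAN1 was at 4.76 and 4.76 FPKM and DAN4 at 5.06 and 5.32. AAC3, which was higher in rrp6, was lower here by 1.23, and ERG5, the gene of a heme enzyme of sterol synthesis, by 1.06. In the iron list ISU1, an iron-sulfur scaffold gene, rose by 1.90 and FIT3 by 1.68, while FET3 fell by 2.04 and SIT1, a siderophore transporter gene, by 1.44. Of 20 oxidative stress genes 11 rose, OYE3, an NADPH oxidoreductase gene, by 5.79, FRM2 by 4.60 and HBN1 by 3.06 the most, with a median of 1.39 against 0.01 for all genes, 9.36% of which were called higher and 2.69% lower. The heme protein and regulator lists had 0 calls. Of the 24 calls in these lists, 4 held in all 10 fits that left out 1 library, OYE3, FRM2, HBN1 and FLR1, all of the oxidative stress list. DAP1 was lost without the workbook column of ume6 with the fusion (adjusted p = 0.0555), and the others were lost without at least 1 of the 4 columns compared. In this comparison HEM13 had an estimate of -0.72 ± 0.32 (log2, adjusted p = 0.177).

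The active fusion within ume6 gave 0 calls in the heme supply, regulator, hypoxic, heme protein and iron lists. It gave 4 of 20 in the oxidative stress list, GRE2 at 2.83, FRM2 at 2.47, FLR1 at 1.83 and HBN1 at 1.68 (log2), where 0.208% of all genes were called higher. None of the 4 held in all 10 fits that left out 1 library, the adjusted p of FRM2 reaching 0.967. Against the inactive fusion, 7 of those 20 genes rose, GRE2 by 4.44, FRM2 by 3.57 and FLR1, a drug exporter gene, by 3.51 the most, against 0.320% of all genes, with a median of 1.51, and FLR1 alone held in all 10 such fits. All 14 heme supply genes had positive estimates there, as did 57.5% of all genes, with a median of 0.85 against 0.09 for all genes and 0 calls. The inactive fusion against ume6, the fusion in wild type and isw2 gave 0 calls in any of these 6 lists.

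The deletions of RPD3 and of ISW2 with RPD3 gave another pattern, and the double deletion also differs in its prototrophic background. In the double deletion AAC3 rose by 2.36 ± 0.41 (log2, adjusted p = 0.0228), from 7.60 to 43.3 FPKM, and ANB1 had an estimate of 2.53 ± 0.70 (adjusted p = 0.0942). In rpd3 alone AAC3 was at 32.8 FPKM and ANB1 at 44.7, against 7.60 and 9.65 in wild type, without a call. CYC1 fell in the double deletion by 2.48, CYB5, the cytochrome b5 gene, by 1.66 and FRE1 by 1.56, 3 of 10 heme protein genes. Of all genes, 1.76% were called higher there and 2.03% lower. The median of the heme protein list was -0.90 against 0.06 for all genes. SUT1 fell by 2.68 and ARN2, a siderophore transporter gene, by 1.76. The columns compared are 1 each and could not be left out, so these differences have no replicate check. Leaving out libraries of other groups, which alters only the estimated spread, ended the calls of CYB5 and FRE1, with adjusted p of up to 0.0815 and 0.0730. Quantile normalization ended those of AAC3, at an adjusted p of 0.0699, and of CYB5. HEM13 did not share the direction of AAC3, with 91.9 FPKM against 140.1 in wild type and an estimate of -0.60 ± 0.45 (log2, adjusted p = 0.510). In rpd3 the single call of the lists was ARN2, lower by 1.58 with an adjusted p of 0.0489 that rose to between 0.0513 and 0.115 whichever library of another group was left out, where 0.609% of genes were called lower.

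The genes whose levels followed HEM13 most closely over the 15 columns, among 1796 genes that varied, were LAC1, a ceramide synthase gene (r = 0.915), PLB2, a phospholipase gene (0.901), YLR342W-A (0.864), MUM3 (0.844) and INA1 (0.840). Without the rrp6 columns, 11 remained and these r were 0.830, 0.781, 0.661, 0.702 and 0.695. HMX1 was followed most closely by GYP7 (r = 0.939), the chitin synthase gene CHS1 (0.938), CYT1 (0.928), the phosphatase gene PTP2 (0.912) and YMR316C-A (0.902). On the 11 columns without rrp6 these r were 0.890, 0.883, 0.841, 0.884 and 0.870. The columns share groups, tables and scaling, and the r are descriptions of log2(FPKM + 1) with the table term removed.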

How the data were processed

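The authors deposited a first table of 8 columns by gene, with a mark for an unnamed motif, and a workbook of 7 sheets. Per the file headers the workbook levels are log2 of FPKM, but the deposited sheet of ume6 sums like the others only when read as log10 of FPKM (938206, against 20678.5 as log2). The first table's header names no unit, and its values were read as log2 of FPKM deposited by the authors because their antilogs sum alike. The wild type column of that table appears to be an average by the authors. Of the 519 values checked, 15.0% were whole in thousandths, 30.1% after multiplying by 2 and 87.1% after multiplying by 6, against 100% in the other columns of that table. Which libraries were averaged, and how many, is not known. CASAVA, TopHat2, SAMtools, Cuffdiff and Cufflinks 2.2.1 are named in the submitters' processing notes, while build, annotation and strand use in counting were not given in the sources used here.

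Log values were turned back to FPKM and the tables joined on systematic names, giving 6644 genes with 15 columns, all mapped to 10 groups. The plan had assumed 17 libraries. Genes with a value in all 15 columns and at least 1 FPKM in 2 of them were tested, 6241 in all. Levels as log2(FPKM + 1) were fitted with limma 3.58.1 in R 4.3.3, with a term per group and 1 for the table and with trended variances. There were 4 residual degrees of freedom and a prior of 4.32. Groups of 1 column are assumed to vary like the others. Fold changes of low genes are understated by the pseudocount. The fit was tested on simulated data.

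The alternatives were a pseudocount of 0.5 or 5, no filter, quantile normalization, no table term, missing values as 0, isolate number as a replicate block, each column of a group of 2 left out in turn, and the 4 rrp6 columns left out. The labels number isolates in several groups, but of the groups with 2 columns only the rrp6 groups have numbers in both column headers. Their same-numbered deviations had r = -0.34 across genes, so the numbers were not taken to pair the samples. In the other 3 such groups the workbook sheet names end in 2 and the first-table columns carry no number, so isolate and table cannot be told apart. Named were all 10 genes, though not with an estimate in every comparison. The lists were heme supply, regulators, hypoxic genes, heme proteins, iron regulon and oxidative stress. From these, the genes called were named, or the 3 largest where over 4 were called. In the rrp6 contrasts, which have no call, up to 3 of the largest of a list were named, and not from every list. AAC3 and ERG5 between the fusion strains, ANB1 in the double deletion, and the neighbouring genes were named after their values were seen. For HEM13 and HMX1 the 5 genes with the highest r are given, among genes with an SD of at least 0.5. The members and lists were chosen with earlier results of these data known. CCP1 is in both the heme protein and the oxidative stress lists. Windows of 500 bases before start codons were searched in RefSeq's R64 genome on both strands.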

Additional observations from a re-analysis of the deposited data

Results flagged for a closer look

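HEM3, the gene of porphobilinogen deaminase, was higher in both columns with the active fusion than in both without it in ume6, by 0.32 (log2), and lower in both with it in rrp6, by a log2 difference of -0.20. HMX1 was lower in both columns of wild type with the fusion than in the single control column, at a log2 difference of -0.50, and higher in both columns of rrp6 with the fusion, at 2.84. Each pair is listed because every column moved one way in one background and the opposite way in the other. The differences between backgrounds were not tested, and HMX1 was among the genes chosen on the rrp6 values. Without the first-table column of wild type with the fusion, the HMX1 difference in wild type was 0.01.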

How the results depend on the processing

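Under 19 alternatives no called difference of the 10 genes changed direction. Among 100 tested member differences 25 changed sign somewhere, none beyond 0.50 in size (log2) or below an adjusted p of 0.354. The count called in ume6 against wild type went from 0 to 1, ROX1, with no table term, with the replicate block and without the 4 rrp6 columns, and ranged from 0 to 1 when 1 library was left out. Between the fusion in ume6 and in wild type, the count of 1 became 3 (ROX1, HMX1 and HEM13, the last at an adjusted p of 0.0403) without the 4 rrp6 columns, and ranged from 0 to 2 when 1 library was left out. Over all genes, this comparison called 752, then 1277 without the 4 rrp6 columns and between 54 and 186 without 1 of the 4 columns compared. The ume6 comparison called 133, then 402 without the rrp6 columns, 204 with no table term and 132 with the replicate block. The isolate numbers are only numbers in the labels, and the block changed no other member call. A crossed replicate block, added after seeing the data, called 3 members between the fusion strains and 1153 genes, and 236 genes in ume6 against wild type. Between rrp6 with the fusion and wild type with the fusion, 1 member was at least 2-fold apart, and 0 to 1 when 1 library was left out, 0 without rrp6 with the fusion isolate 2. HEM13 in rrp6 with against without the fusion ranged from -2.85 to -2.00 and HMX1 from 2.41 to 3.26 (log2). FPKM hold no counts, so what depth limits is unknown, and the single wild type column enters every comparison of a deletion.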

Other observations

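OYE3, the gene with the largest difference among the lists between ume6 with the fusion and wild type with the fusion, lies on chromosome XVI between COX10 and DAP1, which act in heme a synthesis and heme binding. OYE3 was at 8.73 FPKM in wild type, 319 and 207 in ume6, 1402 and 2611 in ume6 with the fusion, 39.1 with the inactive fusion, and 16.2 and 68.6 in wild type with the fusion. DAP1 was at 70.6 FPKM in wild type, 227 and 187 in ume6, 233 and 188 in ume6 with the fusion, 110.0 with the inactive fusion, and 57.8 and 33.5 in wild type with the fusion. COX10 was at 29.4 FPKM in wild type, 56.6 and 48.6 in ume6, 74.1 and 58.5 in ume6 with the fusion, 32.6 with the inactive fusion, and 33.8 and 27.3 in wild type with the fusion. All 3 adjacent genes had both ume6 columns above wild type, but OYE3 alone had both columns with the active fusion above both without it by several-fold. The share of all genes with both ume6 columns above the single wild type column was not counted. These 3 genes were looked at together after their values were seen.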
